A study of Mus musculus with 2 samples.

Results

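CD8 T cells made up 283 of the 6319 cells that passed the filters in this dataset of adrenal gland immune cells, and they held 2 kinds of transcripts side by side: genes of naive, recirculating T cells and genes of effector T cells. The cells were chosen by their UMIs (unique molecular identifiers, each standing for 1 captured transcript). A member had at least 2 UMIs over Cd3d, Cd3e and Cd3g, at least 1 UMI of Cd8b1, no UMI of Cd4, Cd40lg, Trdc or Cd79a, and at most 2 UMIs over C1qa, C1qb and C1qc. The female library gave 187 members among 3817 cells and the male library 96 among 2502, out of 3963 and 2685 deposited barcodes.

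The study set out to describe the immune cells of the adrenal gland in both sexes. Live CD45+ cells, the leukocytes, were sorted from adrenal glands of 7-week-old C57BL/6 mice, for which the labels name no transgene or treatment, and 1 droplet library was made from females and 1 from males. How many animals went into each library is not given in the sources used here, so sex and library cannot be told apart. No step that would part cells inside vessels from cells in the tissue is described. In its flow cytometry the paper found few neutrophils and proposes that little blood was carried over there.

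CD8 T cells recognise peptides on MHC class I molecules, and their coreceptor is a pair of chains, alpha from Cd8a and beta from Cd8b1. A naive CD8 T cell keeps the transcription factors Lef1 and Tcf7 and moves between blood and lymph nodes with Ccr7 (a chemokine receptor for node entry) and S1pr1 (a lipid receptor for node exit). After priming, CD8 T cells take up Ccl5 (a chemokine stored in granules), Nkg7 (a granule membrane protein) and granzymes, and some keep expressing Itgae or Itga1 and stay in tissues.

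With 1 library per sex there was no replicate, so no test was made. Values are given for each library, with exact 95% intervals that cover counting error only. The member cells held 899253 UMIs in the female and 450403 in the male library, the median cell 4564 and 4619, and every member had 1000 or more. Over all deposited barcodes the libraries held 16218309 and 9512670 UMIs, with medians of 3432 and 2777. Levels of a gene are given as CPM, a gene's UMIs per 1000000 UMIs summed over the cells of a group, and shares of cells with a UMI were also taken after a random draw of 1000 UMIs from each cell. The libraries shared 2 barcodes, neither of them a CD8 T cell. Xist, which is transcribed from the inactive X, gave 1217 UMIs in the female and 0 in the male CD8 T cells, and Ddx3y, a gene of the Y, gave 0 and 39.

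The rule split the T cells at low numbers. Exactly 1 UMI of Cd8b1 was seen in 19 female and 19 male members, against 2 or more in 168 and 77, and the median was 5 and 3.5 with a highest value of 27 and 16. Cd8a, which was not needed, had a UMI in 136 and 76 members. The CD3 sum was exactly 2 in 2 and 3 members, with a median of 12 and 11, and cells with 1 CD3 UMI that met every other condition numbered 2 and 3. Transcripts of the macrophage C1q genes, 1 or 2 UMIs, were present in 41 and 27 members, while 11 and 5 cells stayed outside because they held 3 or more. A further 15 and 7 T cells with a Cd8b1 UMI stayed outside for a UMI of Cd4 (3 and 1), Cd40lg (5 and 5) or Trdc (8 and 2), where a cell can count more than once.

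The label was checked against the other markers. Themis, a protein of T cell receptor signalling, stood at 175 CPM (148 to 204) in the female and 140 CPM (107 to 179) in the male CD8 T cells, against 49.0 and 39.1 CPM in the T cells with no Cd8b1 UMI. Zbtb7b, the transcription factor that sets the CD4 lineage, had 5 and 3 UMIs. Foxp3, the factor of regulatory T cells, was at 0 in both libraries. Runx3, which keeps Cd4 silent in CD8 T cells, was measured at 235 and 280 CPM, against 129 and 139 CPM in helper-gene T cells. Cd8a and Cd8b1 lie next to each other on chromosome 6 (GRCm38, chr6:71373427-71379173 and chr6:71322788-71337494, both on the plus strand).

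Transcripts of other cell types were present at low levels. The summed B cell list of 10 genes stood at 455 CPM in the female and 315 CPM in the male CD8 T cells, where 8 and 7 of its genes had a UMI, against 72734 and 54875 CPM in B cells, and Ms4a1 (CD20) was at 2.22 CPM in each. The macrophage list of 10 genes stood at 340 and 291 CPM with 10 and 8 genes seen, led by Lyz2 (lysozyme) at 168 and 95.5 CPM. The adrenal cortex list of 9 genes was at 36.7 and 48.8 CPM with 6 and 7 genes seen, and Cyp11a1, the side-chain cleavage enzyme of steroid synthesis, had 0 and 2 UMIs. The endothelial list of 6 genes was at 40.0 and 35.5 CPM with 2 genes seen in each, and Kdr was at 0 in both. The other myeloid list of 11 genes was at 276 and 184 CPM with 7 and 5 genes seen, of which Plac8 gave 247 and 153, and the list of 8 genes of group 2 innate lymphoid cells was at 68.9 and 66.6 CPM with 4 and 3 genes seen. Xcr1, a marker of cross-presenting dendritic cells, was at 0. The part of these transcripts in the results was not tested.

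CD8 T cells formed 4.90% (4.24 to 5.63) of the female and 3.84% (3.12 to 4.67) of the male cells, a difference of 1.06 percentage points (0.0168 to 2.06, Newcombe interval). With a stricter ceiling of 5% on mitochondrial UMIs the shares were 4.24% and 3.86%, 0.377 points apart (-0.752 to 1.45), so the direction was not settled there. With one of 1.2% they were 1.22% and 1.67%, a difference of -0.448 points (-2.51 to 1.64). That ceiling left 4 and 6 CD8 T cells, too few to show whether the difference held. It was 1.09 points (0.0184 to 2.11) without doublets marked by Scrublet, 1.32 (0.358 to 2.25) with at least 2 Cd8b1 UMIs and 1.13 (0.0952 to 2.12) with at least 3 CD3 UMIs. Among all T cells, 835 in the female and 431 in the male library, their share was 22.4% (19.6 to 25.4) and 22.3% (18.4 to 26.5), a difference of 0.121 points (-4.84 to 4.83). The T cell share itself was 21.9% and 17.2% of cells, 4.65 points apart (2.65 to 6.61). In the paper's flow cytometry, T cell counts were alike in both sexes. A share also depends on the other cells: those with at least 10 C1q UMIs and no CD3 UMI were 20.3% and 29.6%. Their part in the difference was not tested. The T cell conditions also set no limit on NK genes. The share within T cells was not separable between the libraries at these counts.

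Each CD8 T cell was then placed by its naive UMIs (Lef1, Dapl1 and Ccr7) and its effector UMIs (12 genes, Ccl5, Nkg7, Gzma, Gzmb, Gzmk, Gzmm, Prf1, Klrg1, Cxcr3, Klrk1, Klrd1 and Ifng) among 1000 drawn UMIs. Cells with at least 1 naive and fewer than 2 effector UMIs were called naive, those with no naive and at least 2 effector UMIs effector, those that met both limits mixed, and the rest neither. These classes are ranges of a score and no cell types. In the naive class, Nkg7 gave 51.6% of the drawn effector UMIs in the female and 72.7% in the male library, and Klrd1 gave 41.9% and 27.3%. As 2 UMIs of such genes meet the effector limit, neither a mixed cell nor a cell with 2 effector UMIs need hold other effector transcripts. The effector limit ran through a crowded range, since exactly 2 effector UMIs were drawn in 35 female and 6 male cells and exactly 1 in 40 and 17, while 48 and 28 cells had none. The genes that made the classes are described below without any test.

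**Figure D1:**
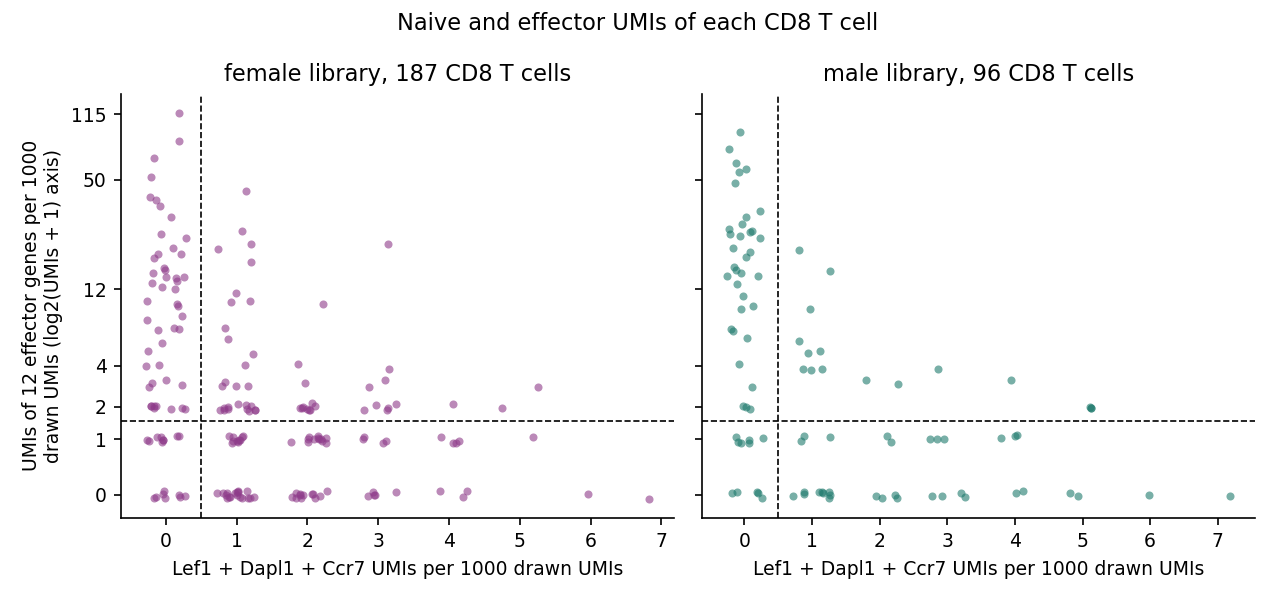
Naive UMIs (Lef1, Dapl1 and Ccr7, horizontal) and effector UMIs (12 genes, vertical, log2(UMIs + 1) axis) among 1000 drawn UMIs, with 1 point per CD8 T cell, slightly jittered, and dashed lines at the class limits. Cells with many effector UMIs mostly hold no naive UMI, and the points run without a gap across the effector limit.

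Naive cells made up 38.0% (31.0 to 45.3) of the female and 35.4% (25.9 to 45.8) of the male CD8 T cells, 71 and 34 cells. This share moved with the limits: it was 52.4% and 38.5% with the effector limit at 3 UMIs, but 21.4% and 24.0% with the limit at 1 and 26.3% and 28.6% among 1500 drawn UMIs, and the last 2 settings turned the order of the libraries. Mixed cells were 27.3% (21.0 to 34.3) and 16.7% (9.84 to 25.6), effector cells 25.7% (19.6 to 32.6) and 36.5% (26.9 to 46.9), and cells of neither kind 9.09% and 11.5%. The naive share differed by 2.55 points (-9.42 to 13.9), the mixed share by 10.6 points (0.103 to 19.8) and the effector share by -10.8 points (-22.3 to 0.381), each as female minus male. At least 1 naive UMI was drawn in 65.2% of female and 52.1% of male cells, 13.2 points apart (1.14 to 25.0), and at least 2 effector UMIs in 52.9% and 53.1%. At the limits used, the libraries thus did not differ detectably in the share of naive cells or of cells with 2 or more effector UMIs. A naive UMI was more frequent among the female cells counted, by an interval that takes cells and not animals as the unit.

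A cell with 12 or more effector UMIs among its 1000 was rarer in the female library, 16.0% against 27.1%, a difference of -11.0 points (-21.7 to -1.18). Of these strongly effector cells, 6 female and 2 male cells also held a naive UMI. Between 3 and 11 effector UMIs were drawn in 34 and 19 cells. Effector UMIs ranged from 0 to 115 in the female and 0 to 92 in the male CD8 T cells around a median of 2 in each, and naive UMIs from 0 to 7 around a median of 1. Median total UMIs before the draw were 4275 and 4040.5 in naive, 4975 and 5823.5 in mixed, and 5451.5 and 4642 in effector cells.

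For comparison, the 633 female and 328 male T cells with no Cd8b1 UMI were used, of which 628 and 320 had enough UMIs for the draw. They are a mixed population: 172 and 92 held a Cd4 or Cd40lg UMI (called helper-gene T cells here), 75 and 44 a Trdc UMI of gamma delta T cells, 18 and 4 a Cd8a UMI, and 368 and 188 none of these. Only 211 of the 633 and 140 of the 328 had no UMI of the NK genes Tyrobp, Fcer1g, Ncr1 or Klrb1c. The conditions set no limit on NK genes, so NK cells with CD3 UMIs were not kept out of this group. At least 1 naive UMI was drawn in 19.9% and 19.7% of them, so the share in CD8 T cells was 45.3 points higher (37.5 to 52.4) in the female and 32.4 points higher (21.5 to 42.9) in the male library. Helper-gene T cells reached 32.0% and 22.8%, 33.3 points (23.1 to 42.4) and 29.3 points (15.5 to 41.5) under the CD8 T cells. In B cells the same share was 13.3% and 13.6%, at median depths of 2320 and 1828 UMIs, and in NK cells 4.43% and 5.73%.

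Effector UMIs followed another order. At least 2 were drawn in 70.5% and 68.8% of the T cells with no Cd8b1 UMI, 54.1% and 63.0% of the helper-gene T cells, 99.4% and 99.6% of NK cells, and 4.87% and 2.33% of B cells. CD8 T cells therefore held 2 or more effector UMIs less often than the pooled Cd8b1=0 T cells, and their difference from helper-gene T cells, -1.13 points (-11.3 to 9.11) and -9.92 points (-23.4 to 4.14), included 0. At 12 or more effector UMIs, CD8 T cells stood 3.25 points (-4.14 to 10.5) and 20.6 points (10.0 to 30.8) above helper-gene T cells, which reached 12.8% and 6.52%. Their difference from the pooled Cd8b1=0 T cells at this limit was -17.9 points (-23.8 to -10.9) in the female and 0.521 points (-8.86 to 11.2) in the male library, so the lower share was seen in the female library and not in the male one. The purely naive class held 26.2% and 17.4% of helper-gene T cells, against the 38.0% and 35.4% of CD8 T cells.

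**Figure D2:**
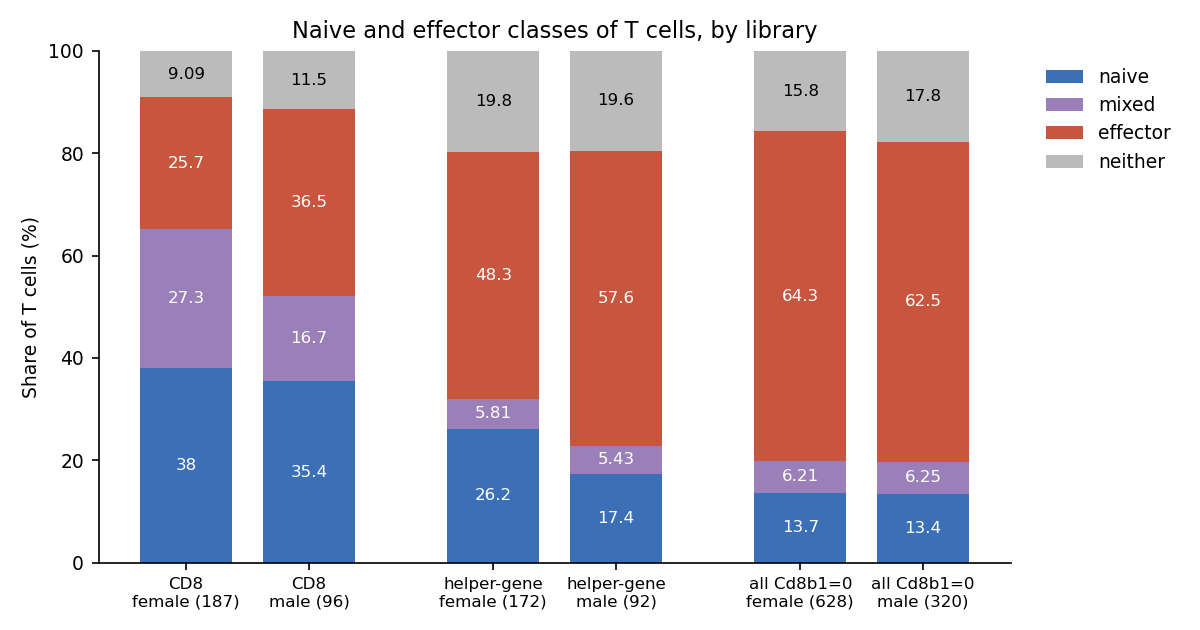
Share of cells (%) in the 4 classes for CD8 T cells, Cd8b1=0 T cells with a Cd4 or Cd40lg UMI (helper-gene) and all Cd8b1=0 T cells, by library, with the number of cells in brackets. The naive and mixed classes together are the larger part of the CD8 bars and at most 32.0% of the others.

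Gene by gene, the 3 naive genes differed in how far they were particular to CD8 T cells by level. Dapl1, a death-associated protein family member found in naive T cells, was drawn in 30.5% of female and 29.2% of male CD8 T cells (44.9% and 41.7% before the draw), in 6.40% and 4.35% of helper-gene T cells and in no B cell. Lef1, a partner of beta-catenin, was drawn in 38.5% and 30.2% (79.1% and 76.0% before the draw), against 25.0% and 18.5% of helper-gene T cells and 1.17% and 0.389% of B cells. Ccr7 was drawn in 22.5% and 17.7% (52.9% and 47.9% before the draw), against 10.5% and 7.61% of helper-gene T cells, and 12.3% and 13.2% of B cells. Dapl1 was thus the most restricted of the 3, and Ccr7 was shared with B cells, which also use it to enter lymph nodes. The genes lie at chr2:59484653-59505020 (Dapl1, plus strand), chr3:131110471-131224356 (Lef1, plus strand) and chr11:99144196-99155077 (Ccr7, minus strand) in GRCm38.

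Among the effector genes, Nkg7 was drawn in 55.6% of female and 53.1% of male CD8 T cells, Ccl5 in 33.7% and 42.7%, Klrd1 (CD94, which pairs with inhibitory or activating receptors) in 29.9% and 25.0%, and Gzma (granzyme A) in 9.63% and 4.17%. The same shares in B cells, which should lack these genes, were 4.29% and 1.95% for Nkg7, 8.38% and 6.61% for Ccl5, 4.09% and 0.778% for Klrd1, and 6.04% and 3.11% for Gzma. The Gzma shares of CD8 T cells were close to those of B cells, and its UMIs lay mostly in the effector class, 301 of 455 in the female and 183 of 185 in the male library, and 5 cells held 71.4% and 97.8% of all its UMIs in CD8 T cells. Nkg7 and Klrd1 were also seen in the naive class, with 494 and 478 CPM of Nkg7 and 373 and 242 CPM of Klrd1. Ccl5 stood there at 73.4 and 22.0 CPM, and at 10937 and 17601 CPM in the effector class. Nkg7, Klrd1, Ccl5 and Gzma are among the effector genes that set the class limits. How their UMIs lay among the classes thus follows in part from the split and was not tested.

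Across all genes, CD8 T cells were compared with all Cd8b1=0 T cells. Most genes of the naive list were higher, and most genes of the NK and innate-like T cell lists lower. A gene was called when its CPM differed 2-fold or more in the same direction in both libraries, among genes with at least 30 UMIs over both groups in each. A gene could reach this minimum through 1 group alone and then had to differ, so the counts of called list members here and below are descriptions. Of 6317 genes, 50 (0.792%) were higher and 301 (4.76%) lower in CD8 T cells. The median gene had a ratio of 0.838 in the female and 0.807 in the male library, so the ratios printed from here on for this comparison are divided by that median, while the calls rest on the ratios before division. Called on the divided ratios, 89 genes (1.41%) were higher and 192 (3.04%) lower.

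Of 20 naive genes, 18 were measured and 13 were called higher, none lower, against 0.792% of all genes. Lef1, Dapl1 and Ccr7 had entered the definition of the classes. Klf2, the transcription factor that switches on S1pr1, was at 815 CPM in the female and 768 CPM in the male CD8 T cells, against 255 and 185 CPM, a ratio of 3.82 (3.44 to 4.24) and 5.14 (4.37 to 6.06). S1pr1 was at 247 and 222 CPM against 89.4 and 66.4, a ratio of 3.30 (2.74 to 3.96) and 4.15 (3.10 to 5.55). Both were thus higher in each library, as was Ccr7. Tcf7 had a ratio of 2.98 and 2.62, Bach2 (a repressor that holds back effector genes) 3.09 and 3.56, Ccr9 (a receptor for gut and thymus homing) 4.40 and 3.35, and Nsg2, Actn1, Dgka and Il6ra were also called. Il7r, the receptor for the survival cytokine IL-7, was at 702 and 500 CPM against 422 and 224 and was not called, nor were Satb1, Foxp1, Igfbp4 or Txk.

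The choice of comparison population mattered for this list. Against helper-gene T cells alone, 6 of the 18 naive genes were called higher, among them Actn1, Ccr7, Dapl1, Klf2 and Nsg2, when 0.775% of 3615 genes were. Against the 211 female and 140 male Cd8b1=0 T cells with no UMI of the NK genes Tyrobp, Fcer1g, Ncr1 or Klrb1c, 2 were called, Dapl1 among them, when 0.757% of 3569 genes were. These comparisons share the CD8 T cells, which were not filtered for NK genes. Fewer naive genes were thus called against the narrower groups, which also held fewer UMIs, and Dapl1 was called in each of the 3 comparisons.

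**Figure D3:**
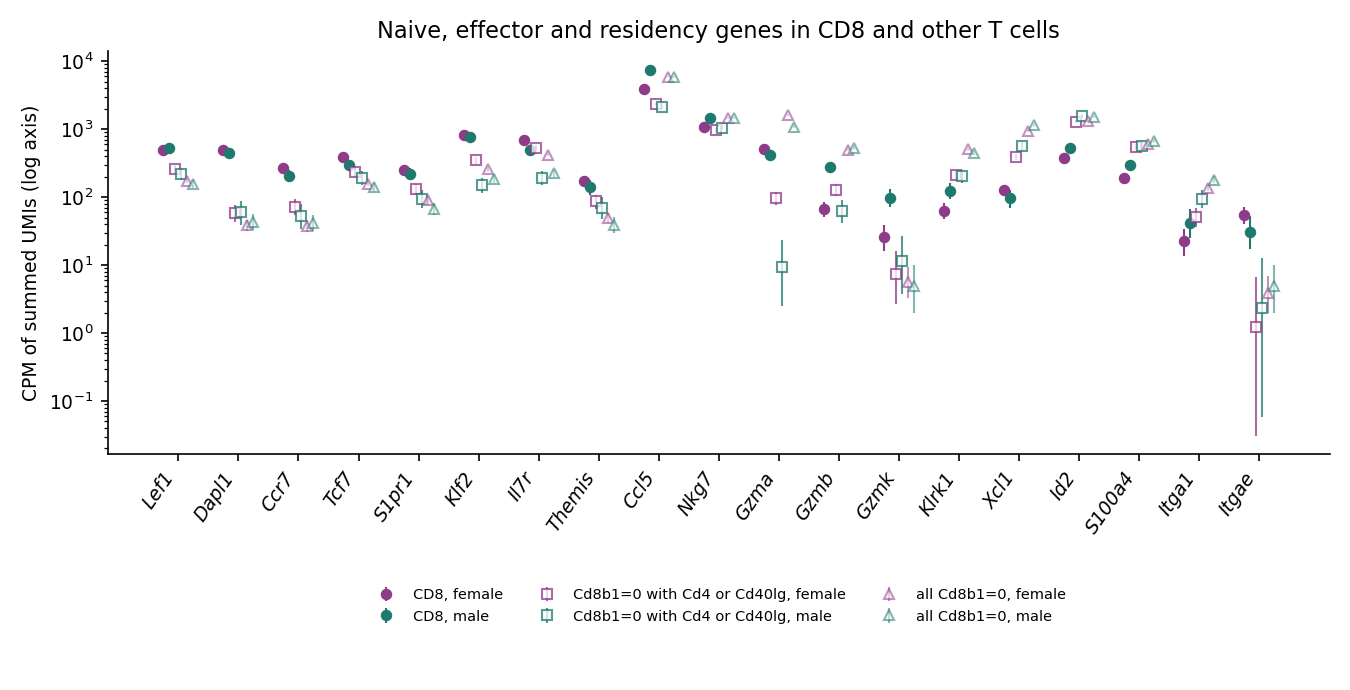
CPM (log axis) of naive, effector and residency genes in CD8 T cells (filled circles), helper-gene T cells (open squares) and all Cd8b1=0 T cells (open triangles), female in purple and male in green, with 95% Poisson intervals for counting error. Klf2 stands at 815 and 768 CPM in CD8 T cells and Itga1 at 22.2 and 42.2.

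Of the 10 genes highest in CD8 T cells by the smaller of the 2 ratios before division, several have no place in the naive list. Tdrp, named for its role in the testis, came first with 74.5 and 57.7 CPM against 7.10 and 3.50, a ratio of 12.5 (7.51 to 21.8) and 20.5 (7.74 to 68.3). Dapl1 followed with 15.2 and 12.7, then Fam241a with 17.8 (11.5 to 28.6) and 9.84 (5.76 to 17.5). Lcn4, a lipocalin, was at 87.9 and 102 CPM against 13.1 and 9.09, and Fam169b at 103 and 86.6 against 15.6 and 10.5. Rgcc, a regulator of the cell cycle, was at 129 CPM in each library against 22.7 and 21.7, and Cmah, which makes a sialic acid, at 120 and 91.0 against 23.4 and 19.6. Gzmk (granzyme K) was the effector gene among these leading genes, with 25.6 and 97.7 CPM against 5.68 and 4.89. It rested on 23 female and 44 male UMIs, from 8 and 13 cells, and was at 13.0 and 66.1 CPM without the CD8 T cells that held a UMI of a cycle gene.

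On the lower side, 4 of the first 10 genes were not seen at all in CD8 T cells: Cd200r2, Klra6, Tmem273 and Trdv4. Counting up to 3 UMIs for a value of 0, Tmem273 was lower by at least 11.4-fold (female) and 4.15-fold (male). Trdv4, a variable segment of the delta chain, had 30 and 37 UMIs in the other T cells and was at least 2.67-fold and 3.13-fold lower, which follows from the rule against Trdc. Gzmc, a granzyme of NK and innate-like cells, had 1 and 0 UMIs against 157 and 264, Ccl1 had 2 and 1 against 157 and 210, and Klra5, Klri2, Ly6c1 and Zbtb16 (the factor of innate-like T cells) completed the group.

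Of 13 NK genes 11 were called lower, and so were the 10 of 17 innate-like T cell genes that reached the UMI minimum, against 4.76% of all genes. They reached it mostly through the comparison group, as Trdv4 did with no UMI in CD8 T cells. The lists share Fcer1g, Klrb1c, Ncr1 and Tyrobp, so their counts are not separate. Of the innate-like genes, Tcrg-C1, Tcrg-C2, Tcrg-C4 and Trdv4 are receptor genes of gamma delta T cells, which the rule against Trdc keeps out of the CD8 T cells but not out of the comparison, and their lower level follows in part from the rule. Tyrobp, an adaptor of NK receptors, stood at 101 and 77.7 CPM against 903 and 884 CPM, and Ncr1 (NKp46) at 31.1 and 13.3 against 192 and 193. The NK list summed to 870 and 908 CPM in CD8 T cells, 4515 and 4573 in Cd8b1=0 T cells and 12344 and 12111 in NK cells. Against helper-gene T cells 3 of 7 measured NK genes were called lower, where 3.10% of all genes were, and Tyrobp was at 141 and 60.3 CPM there, so its level in CD8 T cells lay under theirs in the female and over theirs in the male library.

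Effector genes were split. Of 32 measured, 15 were called lower in CD8 T cells (9 on the divided ratios), against 4.76% of all genes, and 2 higher, against 0.792%: Gzmk and Cx3cr1, a chemokine receptor of circulating effector cells. Xcl1, a chemokine for dendritic cells, stood at 126 and 95.5 CPM against 942 and 1143, a ratio of 0.159 (0.131 to 0.192) and 0.104 (0.0747 to 0.140). Klrk1 (NKG2D) had a ratio of 0.150 and 0.344, Id2 0.343 and 0.426, Il2rb (a receptor chain for IL-2 and IL-15) 0.348 and 0.499, and Cd44 (a mark of antigen experience) 0.468 and 0.522. Ccl5 was at 3868 CPM in the female and 7396 CPM in the male CD8 T cells, against 5932 and 5864, and Nkg7 at 1074 and 1465 against 1458 and 1465, neither of them called. Cx3cr1 was at 32.2 and 66.6 CPM against 9.23 and 6.99, a ratio of 4.17 and 11.8, but 5 cells held 62.1% and 76.7% of its UMIs. Without the 22 female and 7 male CD8 T cells that held a UMI of a cycle gene, it was at 31.2 and 26.9 CPM. Against helper-gene T cells 27 were measured, of which Cx3cr1, Gzma and Prf1 (perforin) were called higher and 7 lower, with 0.775% and 3.10% of all genes. Against Cd8b1=0 T cells without NK genes 26 were measured, of which 7 were called higher, among them Ccl5, Gzma, Gzmb, Gzmk and Prf1, and 3 lower, with 0.757% and 1.29% of all genes. For that comparison, cells with a UMI of Tyrobp, Fcer1g, Ncr1 or Klrb1c were taken out of the comparison group alone. Tyrobp itself was called higher there, so higher effector genes in it follow in part from the filter. The direction of the effector list as a whole thus moved with the cells kept in the comparison group.

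Of 7 measured residency genes 4 were called lower in CD8 T cells, Ahr, Cxcr6, Itga1 and Rgs1 (on the divided ratios Ahr and Itga1), against 4.76% of all genes. This too moved with the comparison population, since against helper-gene T cells 2 of 6 were called lower, Cxcr6 and Itga1, with 3.10% of all genes, and against Cd8b1=0 T cells without NK genes 0 of 5, with 1.29%. Itga1 (CD49a, a collagen receptor) stood at 22.2 and 42.2 CPM against 138 and 181, a ratio of 0.193 (0.116 to 0.302) and 0.289 (0.171 to 0.460). Cxcr6, the receptor for CXCL16, was at 126 and 202 CPM against 319 and 408. Itgae (CD103), in contrast, gave 49 and 14 UMIs in CD8 T cells, 54.5 and 31.1 CPM against 3.90 and 4.89, but did not reach the UMI minimum in the male library and was not tested. Its level was 95.7 and 58.8 CPM in the naive class and 7.75 and 23.8 CPM in the effector class. Cd69, an early activation and retention marker, was at 271 and 222 CPM against 187 and 145 and was not called. Zfp683 (Hobit), a factor of resident T cells, gave 1 UMI in each library. Pdcd1, Lag3 and Havcr2, the inhibitory receptors of chronically stimulated T cells, gave 3 to 8 UMIs per library, Tigit none, and Ctla4 0 and 2, while Cd160 and Cd200r1 were called lower.

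Among lineage factors, 3 of 13 measured were called higher (Bach2, Lef1 and Tcf7), against 0.792% of all genes, and 3 lower (Gata3, Zbtb16 and Zbtb7b), against 4.76%. The higher ones were also counted in the naive list, Zbtb16 in the innate-like list, and Gata3 and Zbtb7b in the helper list. Zbtb7b had a ratio of 0.208 (0.0659 to 0.503) and 0.207 (0.0415 to 0.637), and Gata3, which drives helper and innate fates, 0.496 and 0.463. Runx3 had a ratio of 1.31 (1.12 to 1.54) and 1.51 (1.22 to 1.86), and Tox and Ets1 were not called either. Of the 9 measured CD4 helper genes 6 were called lower, where 4.76% of all genes were. The rule removed cells with a Cd4 or Cd40lg UMI from the CD8 T cells and kept 172 and 92 of them in the comparison, so lower levels of helper genes, Zbtb7b and Gata3 included, follow in part from the rule. Trac, the constant part of the alpha chain, was at 570 and 522 CPM against 530 and 482, and in the list of T cell receptor and coreceptor genes 1 of the 13 measured beyond the rule was called higher, where 0.792% of all genes were: Themis, with a ratio of 4.26 and 4.43.

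Genes that respond to signals from the surroundings were read against the same shares over all genes, 0.792% higher and 4.76% lower. Of 12 interferon-response genes 1 was called lower and none higher, and their sum was 1826 and 1694 CPM in CD8 T cells and 1959 and 1522 CPM in the other T cells. Of 9 immediate early genes, which are induced by handling as well as by stimulation, 2 were called lower, and the medians of their log2 ratios before division were -0.50 and -0.84. Of 10 genes that respond to glucocorticoid, the hormone made by the adrenal cortex, 3 were called lower and none higher, among them Fkbp5 at 25.6 and 13.3 CPM against 89.4 and 52.4. Tsc22d3 (GILZ) was at 325 and 255 CPM against 171 and 140 and was not called. Of 80 measured genes of ribosomal proteins none was called, although 77 were higher in both libraries, as 13.7% of all genes were, with median log2 ratios of 0.37 and 0.43 before division. The cycling list of 10 genes summed to 883 and 402 CPM against 1252 and 1178 CPM, and none of its 7 measured genes was called.

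The V segments of the receptor were too sparse to describe clones. A beta V segment was seen in 31 of 187 female (16.6%) and 12 of 96 male cells (12.5%), spread over 14 and 12 of 35 segments, and an alpha V segment in 31 (16.6%) and 18 (18.8%) cells over 21 and 11 of 128 segments. No beta segment was found in more than 4 cells of a library.

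Within the CD8 T cells, the effector class was compared with the naive class, leaving out the 15 genes that defined them. Members of the effector list, led by S100a4 and S100a6, were higher in effector cells, and members of the naive list, among them Igfbp4 and S1pr1, were higher in naive cells, in both libraries. Of 1178 genes, 49 (4.16%) were higher in the effector class and 17 (1.44%) higher in the naive class. The median ratio was 1.14 and 1.22, and the ratios below are divided by it. Called on the divided ratios, 33 genes were higher (2.80%) and 25 lower (2.12%). Because the classes were cut from the same cells, genes that go along with the split genes differ by construction, and the values are a description.

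Of the effector list, 11 genes outside the split reached the UMI minimum and 9 of them were called higher, where 4.16% of all genes were. Several reached it through the effector class alone. S100a4 came first, with 1 UMI in the naive and 141 in the effector cells of the female library, a ratio of 150 (26.5 to 5978), and with 0 and 128 UMIs in the male library, which makes it at least 28.4-fold higher. S100a6 went from 22.3 CPM in naive to 1349 CPM in effector cells of the female library and from 7.35 to 2096 CPM in the male library, and the mixed class lay between at 210 and 479. Itgb1 (the beta-1 integrin) had a ratio of 13.2 (6.95 to 28.2) and 13.8 (5.20 to 52.0), and Xcl1 25.6 (9.67 to 95.8) and 12.7 (3.27 to 108). Of the Xcl1 UMIs in the effector class, 5 cells held 79.2% and 84.2%. Il2rb stood at 434 and 500 CPM in the effector class against 63.8 and 22.0, Lgals1 (galectin-1) at 1167 and 1268 against 169 and 132, and Id2 at 826 and 1137 against 134 and 118. Anxa2 and Ly6c2 were also called, and Crip1 was not, at 1678 and 2292 CPM against 896 and 1205.

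Genes outside that list went along with it, Ctla2a among them. Cd160, a receptor of cytotoxic cells, stood at 217 and 173 CPM in the effector class against 9.57 and 7.35, a ratio of 19.9 (6.47 to 99.4) and 19.3 (3.21 to 790). Tyrobp was at 171 and 179 CPM against 15.9 and 22.0, but 5 cells held 86.4% and 90.0% of its UMIs in the effector class. The whole NK list of 13 genes was at 1356 and 1441 CPM against 443 and 353 CPM. Cxcr6 was the residency gene called, with 209 and 458 CPM against 57.4 and 29.4, and Hmgb2, a chromatin protein that is high in dividing cells, was at 1027 and 631 CPM against 319 and 118. The macrophage list was at 643 and 268 CPM in the effector class and 204 and 323 CPM in the naive class, so it moved with the class in the female library and not in the male one. Its part in the result was not tested.

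**Figure D4:**
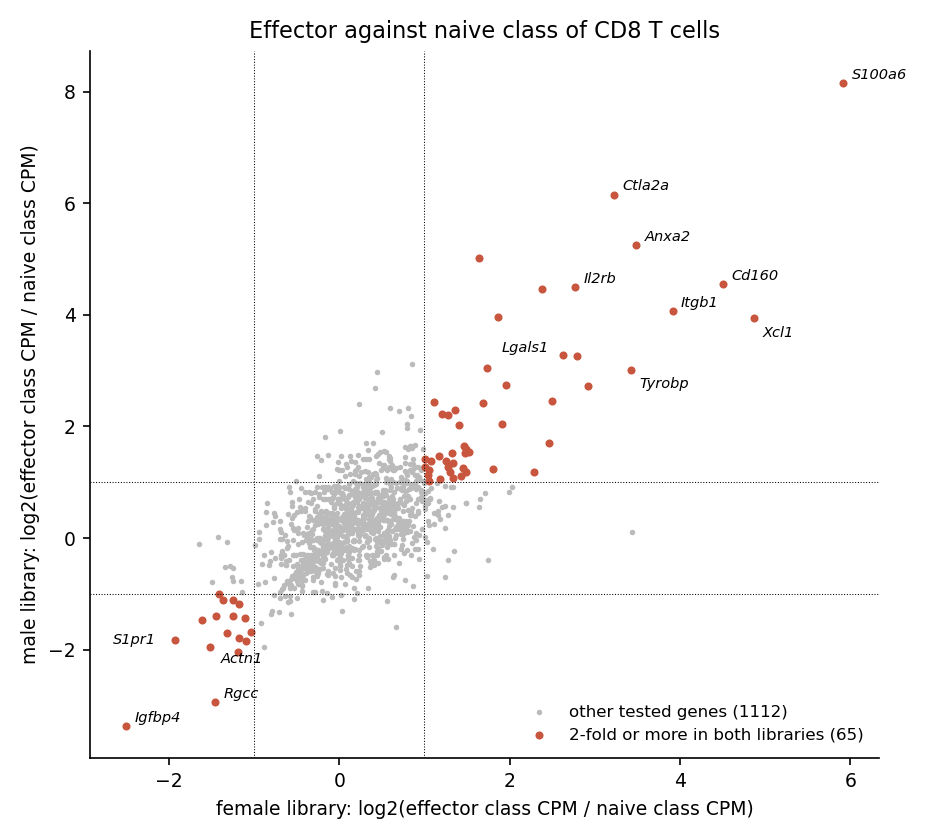
log2 ratio of CPM, effector over naive class, in the female (horizontal) and male (vertical) library, before division by the median, for 1177 of the 1178 genes tested (S100a4, at 0 UMIs in the male naive class, cannot be drawn). Red points differ 2-fold or more in both libraries, dotted lines mark 2-fold, and S100a6 lies farthest up and Igfbp4 farthest down.

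On the naive side, 11 genes of the naive list reached the UMI minimum and 6 were called lower in the effector class, where 1.44% of all genes were, among them Actn1, Igfbp4, Il7r, S1pr1 and Satb1. Igfbp4, a binding protein of insulin-like growth factors, stood at 175 and 367 CPM in naive and 31.0 and 35.7 CPM in effector cells, a ratio of 0.155 (0.0638 to 0.327) and 0.0800 (0.0280 to 0.187). S1pr1 went from 354 and 316 to 93.0 and 89.3 CPM, a ratio of 0.230 (0.142 to 0.361) and 0.233 (0.120 to 0.427). Satb1, a chromatin organiser of thymocytes and naive T cells, was at 580 and 411 CPM against 190 and 149. S1pr1 and Satb1 took no part in defining the classes. As the classes were cut from the same cells, their levels describe the split and do not test it. Both were also seen in effector cells, S1pr1 in 39.6% of female and 22.9% of male ones and Satb1 in 41.7% and 25.7%. Tcf7 (0.476 and 0.213) and Klf2 (0.479 and 0.478) passed 2-fold on the divided ratios only.

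Rgcc, Tsc22d3, Peli1 (a ubiquitin ligase that restrains T cell activation) and Klf3 were also among the 10 leading genes of the naive class. Tsc22d3, which glucocorticoids induce and which is high in resting lymphocytes, had 443 and 360 CPM in naive and 163 and 137 CPM in effector cells, a ratio of 0.322 (0.222 to 0.458) and 0.313 (0.182 to 0.524). It was called together with Il7r, which the naive list also holds, out of 3 measured glucocorticoid genes, where 1.44% of all genes were called lower. Of 78 measured ribosomal protein genes 76 were lower in the effector class in both libraries, as 23.0% of all genes were, none 2-fold, with median log2 ratios of -0.37 and -0.51 before division. Of the genes of CD8 identity, Themis was at 147 and 118 CPM in naive and 140 and 125 CPM in effector cells. Runx3 was at 214 and 272 against 295 and 262, and neither gene differed 2-fold.

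The promoters of the gene ranked first on each side are shown. S100a4 ranked first on 1 female and 0 male UMIs in the naive class, so its place over S100a6 is uncertain. Of the 10 leading genes on each side, 7 had a RefSeq entry, and the 250 bases before the start were read from it (GRCm38.p6, 5′ to 3′ on the plus strand, which is the strand of both genes, S100a4 at chr3:90603520-90603769 and Igfbp4 at chr11:99040994-99041243). Capitals mark a match to any of the 6 letter strings searched on both strands.
S100a4: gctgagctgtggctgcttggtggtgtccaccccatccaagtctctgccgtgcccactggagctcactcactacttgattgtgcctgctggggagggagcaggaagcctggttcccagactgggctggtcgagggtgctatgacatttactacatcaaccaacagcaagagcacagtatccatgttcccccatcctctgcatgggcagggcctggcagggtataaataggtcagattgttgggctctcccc
Igfbp4: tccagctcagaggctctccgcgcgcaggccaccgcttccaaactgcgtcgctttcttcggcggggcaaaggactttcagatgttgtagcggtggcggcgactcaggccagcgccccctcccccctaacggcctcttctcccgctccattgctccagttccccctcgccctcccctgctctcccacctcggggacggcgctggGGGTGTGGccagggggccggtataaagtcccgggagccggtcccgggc

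The strings were CTTTGA and its longer form CTTTGAT (bound by Lef1 and Tcf7), TGTGGT and its longer form TGTGGTT (Runx factors), GGGTGTGG (Klf2-type factors) and CACGTG (the E-box), and they had been looked up in some of these windows before. S100a4 held none, and Igfbp4 held GGGTGTGG, which 3.20% of all 32851 windows hold. TGTGGTT was found in 3 of the 7 windows of effector genes (Cd160, S100a6 and Xcl1) and 1 of the 7 of naive genes (Tsc22d3), against 4.40% of all windows, and the shorter TGTGGT in the same windows, against 14.0%. CTTTGA was found for 1 gene on each side (Cd160 and Tsc22d3), against 13.8% of windows, and CTTTGAT, which 3.21% hold, for none. GGGTGTGG was found for Cd160 and Xcl1 besides Igfbp4, and CACGTG, which 6.02% of windows hold, for none. These are matches of letters, not binding sites.

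Between the libraries, female and male CD8 T cells differed in a small share of genes, and several of the leading ones were carried by few cells. The male cells held more Ccl5, Gzmb and Gzmk but not Gzma, and the female cells more transcripts of dividing cells. A gene was called when it differed 2-fold or more and its counting interval lay on 1 side of 1. Of 4648 genes, 78 (1.68%) were higher in the female and 68 (1.46%) higher in the male cells, and the median log2 ratio was 0.00.

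None of the 20 naive genes was called in either direction over all CD8 T cells. This is near the shares over all genes, 1.68% higher in the female and 1.46% higher in the male cells. Within the naive class Igfbp4 was at 175 and 367 CPM, a ratio of 0.477 (0.320 to 0.715), which passes the same limits. Lef1 was at 499 and 522 CPM (ratio 0.957), Dapl1 at 488 and 444 (1.10) and Ccr7 at 267 and 206 (1.29, 1.01 to 1.66). Of 30 effector genes, 5 were called higher in the male and 2 higher in the female cells, where 1.46% and 1.68% of all genes were. Gzmb (granzyme B) stood at 66.7 CPM in the female and 278 CPM in the male cells, a ratio of 0.240 (0.174 to 0.330), from 19 and 21 cells, of which the top 5 gave 60.0% and 69.6% of the UMIs. Gzmk had a ratio of 0.262 (0.151 to 0.443), and Ccl5 0.523 (0.499 to 0.549), not 2-fold. Gzma ran the other way at 506 and 411 CPM, a ratio of 1.23 (1.04 to 1.47) that was not called. It reached 2.15 (1.65 to 2.83) without the cells that held a UMI of a cycle gene, which left 283 female and 70 male UMIs. As 5 cells held most of the Gzma UMIs in each library, both ratios rested on few cells. Within the effector class alone, the ratio was 0.245 (0.171 to 0.347) for Gzmb and 0.621 (0.590 to 0.654) for Ccl5. The male effector cells thus held more Gzmb and Ccl5 per UMI. Both genes are among the 12 that set the effector limits, and Ccl5 alone gave 63.9% of the effector UMIs drawn in female and 72.1% of those in male CD8 T cells, so this difference and the larger male share of cells with 12 or more effector UMIs are not separate observations.

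Ccl4 (MIP-1 beta), a chemokine of activated cells, went the other way at 316 and 57.7 CPM, a ratio of 5.47 (3.66 to 8.52), but 13 and 11 cells held its UMIs and 5 cells held 97.2% of them in the female library. Genes of dividing cells did likewise. Stmn1 (a microtubule regulator) was at 112 and 11.1 CPM, Pclaf at 76.7 and 11.1, and Top2a (topoisomerase II) at 48.9 and 6.66, with 81.2%, 92.8% and 81.8% of the female UMIs in 5 cells, and Hist1h2ae likewise at 96.6%. A UMI of any of 8 cycle genes was held by 22 of 187 female (11.8%, 7.52 to 17.3) and 7 of 96 male cells (7.29%, 2.98 to 14.4). The higher level in the female library therefore rested on a handful of cells, while the shares of cells overlapped. Fn1 (fibronectin), which macrophages make, had 46 UMIs against 1, with 95.7% in 5 cells. Myb, a factor of proliferation and self-renewal, was at 44.5 and 4.44 CPM, with 62.5% of its female UMIs in 5 cells. Gem, higher in the male library, had 12 and 19 UMIs, of which 5 cells held 66.7% and 63.2%.

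Other differences were carried by more cells. Tmem108 was at 110 and 44.4 CPM, a ratio of 2.48 (1.52 to 4.23), with UMIs in 67 female and 17 male cells and 18.2% of the female UMIs in 5 cells. Faah, which breaks down endocannabinoids, was at 47.8 and 13.3 CPM (3.59, 1.52 to 10.3) from 34 and 6 cells. Wdr89 was higher in the male library, 74.5 against 167 CPM (0.447, 0.317 to 0.631), from 49 and 54 cells. Il18r1, a chain of the IL-18 receptor, had a ratio of 0.403 (0.239 to 0.677), and Sft2d2, Ruvbl2, Trim44 and Elk3 lay on the same side. With 1 library per sex, none of these differences can be assigned to sex.

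**Figure D5:**
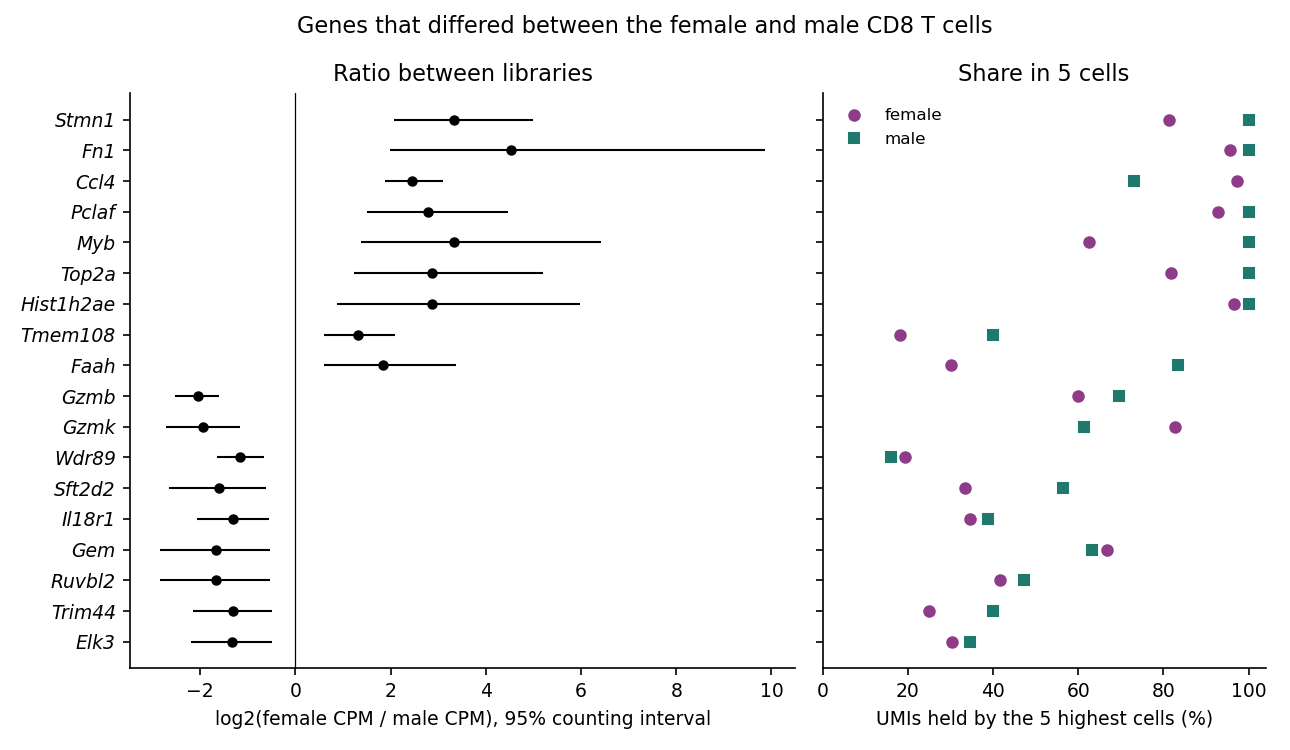
Left, log2 ratio of female to male CPM in CD8 T cells with 95% counting intervals for the leading genes in each direction; right, share of a gene's UMIs (%) held by its 5 highest cells, female circles and male squares. Xist and Ddx3y, at 0 in a library, cannot be drawn. Stmn1, Fn1 and Ccl4 have over 80% of their female UMIs in 5 cells, whereas Tmem108 and Wdr89 have under 20%.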

How the data were processed

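Live CD45+ cells from adrenal glands of C57BL/6 mice were measured in 1 female and 1 male droplet library (10x Genomics 3′ chemistry). The deposited values are raw UMI counts per gene and barcode, which the authors made with Cell Ranger 4.0.0 on mm10 (32285 genes) after removing noise barcodes with DropletUtils 1.4.3. Everything else was computed here from those counts in Python 3.11.15 (numpy 2.4.6, scipy 1.17.1, pandas 2.3.3).

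Barcodes with at least 200 genes and at most 15% mitochondrial UMIs were kept. The study names a ceiling of 1.2%, which leaves 327 and 359 barcodes here, far fewer than the cells it states were kept, so the stated ceiling and cell numbers disagree and values at 1.2% may not be those of its filter. The median CD8 T cell held 4.43% mitochondrial UMIs in the female and 3.55% in the male library. T cells with no Cd8b1 UMI met the same CD3, C1q and Cd79a conditions. B cells had at least 2 Cd79a UMIs and no CD3 UMI, and NK cells at least 1 UMI each of Ncr1 and Klrb1c with no CD3 or Cd79a UMI. Doublets were left in. Scrublet (scanpy 1.11.5), scored as an alternative, marked 2 female and 0 male CD8 T cells at 0.8% per 1000 barcodes. Its automatic threshold marked 122 and 8 barcodes.

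UMIs were summed per library and group. Intervals are Clopper-Pearson for shares, Poisson for CPM, conditional binomial for ratios and Newcombe for differences of shares, at 95%. A value of 0 was taken as up to 3 counts for bounds. Genes below 30 UMIs were left out. The draw of 1000 UMIs per cell used seed 1, and cells with fewer were left out (5 female and 8 male Cd8b1=0 T cells). The ratio computation was tested on simulated data. Named genes are members of 22 lists that fit the point described, and the 10 leading genes in each direction ranked by the smaller ratio of both libraries (between libraries, by the interval bound nearest to 1). The members, lists and tests were chosen with earlier results of these data known, and leading genes do not include ribosomal, mitochondrial or Gm-numbered ones. Some named genes are not reported here.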

Additional observations from a re-analysis of the deposited data

Results flagged for a closer look

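In all, 8 genes had ratios whose counting intervals lay on opposite sides of 1 in the female and male library; the difference was not tested. In CD8 T cells over Cd8b1=0 T cells (ratio of CPM, not divided by the median), Ccl4 was at 1.87 in the female and 0.135 in the male library, Ccl5 at 0.652 and 1.26, Clock at 1.73 and 0.172, Fn1 at 2.53 and 0.0481, Ifi27l2a at 0.823 and 1.32, Rps6ka3 at 1.35 and 0.617, and Trim44 at 0.565 and 2.17. In effector over naive cells, Malat1, a nuclear RNA, was at 0.939 and 1.62. Of the female CD8 UMIs, 97.2% of Ccl4 and 95.7% of Fn1 were in 5 cells.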

How the results depend on the processing

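With 1 library per sex, spread between animals is unknown, and intervals cover counting error only. The 96 male cells and the 30-UMI minimum limit what could be seen. No paired analysis was possible because each group is 1 library and no test was made. Of 90 values under other settings, 54 stayed within their margin and 36 did not; among named genes 637 stayed and 102 did not, 67 of them with 50 CPM added.

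The CD8 share was 4.24% in the female library with a 5% mitochondrial ceiling and 1.22% with the 1.2% ceiling (male 1.67%), which left 4 of 327 and 6 of 359 barcodes; with 2 Cd8b1 UMIs it was 3.08% in the male. The naive class was 26.3% of female cells among 1500 drawn UMIs, 21.4% (male 24.0%) with the effector limit at 1 and 52.4% at 3. For CD8 against Cd8b1=0 T cells (50 higher, 301 lower), the counts were 28 and 112 against helper-gene T cells, 27 and 46 without NK genes, 19 and 114 with at least 100 UMIs, 16 and 52 with 50 CPM added, 89 and 192 centred, 79 and 543 in the female library alone and 115 and 867 in the male. For the effector against the naive class (49 and 17) they were 14 and 1 with 100 UMIs, 29 and 7 with 50 CPM, 94 and 28 female alone and 170 and 37 male alone. Between libraries (78 and 68) they were 43 and 22 in the naive class, 6 and 5 with 100 UMIs, and 4 and 2 with 50 CPM. The no-NK comparison, another seed, doublet removal in the last 2 comparisons, centring of the classes and leaving out cycling cells (78 and 75) were chosen after seeing the data. The cause of each shift was not tested.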
